A study of Mus musculus with 8 samples.

Results

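Chemokines are small secreted proteins that attract white blood cells, and the 10 mouse chemokine genes described here (Ccl2, Ccl5, Ccl7, Ccl8, Cxcl1, Cxcl5, Cxcl10, Cxcl12, Cxcl16 and Cx3cl1) were followed in fibroblasts made to express the T cell factor TCF-1. They were taken as a fixed list of ligands known from fibroblasts and were matched by Ensembl identifier in all 8 count tables of the series, out of 53465 genes in the 3T3 tables and 31053 in the Scid.adh tables. The series studies how TCF-1, a DNA-binding protein encoded by Tcf7, rearranges the folded genome during T cell development. Its RNA-seq libraries form 4 groups with 2 libraries each. Normal NIH-3T3 cells, a mouse embryonic fibroblast line, are labelled wild type and untreated. Induced NIH-3T3 cells are labelled as having Tcf7 and TCF1 induced. The file headers name Cas9, the word empty, 2 construct names and 72 hours for all 3T3 libraries and doxycycline for the induced libraries only, so any effect of the drug and that of TCF-1 cannot be told apart. Scid.adh, a mouse thymic lymphoma line used as a model of the DN3 stage of T cell precursors, is labelled wild type with an empty vector or Tcf7-/- with TCF1 knocked out. Whether the 2 libraries of a group are separate cultures or clones is not labelled; the spread that p-values rest on may therefore be technical.

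Chemokines fall into families by the spacing of their first cysteines, CC, CXC and CX3C, and act through G-protein-coupled receptors on the cells they recruit. CXC ligands such as CXCL1 and CXCL5 draw neutrophils through CXCR2. CCL2 and CCL7 draw monocytes largely through CCR2, and CXCL10 draws activated T cells through CXCR3. CXCL12 is made steadily by stromal cells and holds progenitors and lymphocytes near them through CXCR4. Fibroblasts make many of these ligands when inflammatory signals reach NF-kB, and CXCL10 typically also needs interferon signalling through IRF factors.

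The bases ahead of the start site are shown for the 3 genes with a RefSeq window whose transcripts rose, Cxcl1, Cxcl10 and Cxcl12, and for Ccl8, whose transcripts did not pass the test. RefSeq windows on GRCm38.p6 were at hand for 5 of the 10 genes, and the stretches below are the 250 bases before the start, 5′ to 3′ on the strand of the gene. Capitals mark matches to 4 motifs searched on both strands: the kappaB motif bound by NF-kB, the interferon response core GAAANNGAA, the AP-1 motif TGANTCA and the TCF motif CTTTGAT or CTTTGAA.
Cxcl1, chr5:90890995-90891244, plus strand: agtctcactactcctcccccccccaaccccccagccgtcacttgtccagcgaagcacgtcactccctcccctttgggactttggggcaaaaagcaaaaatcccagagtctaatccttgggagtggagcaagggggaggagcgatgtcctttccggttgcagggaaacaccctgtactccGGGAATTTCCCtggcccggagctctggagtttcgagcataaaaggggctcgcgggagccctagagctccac
Cxcl10, chr5:92348890-92349139, minus strand: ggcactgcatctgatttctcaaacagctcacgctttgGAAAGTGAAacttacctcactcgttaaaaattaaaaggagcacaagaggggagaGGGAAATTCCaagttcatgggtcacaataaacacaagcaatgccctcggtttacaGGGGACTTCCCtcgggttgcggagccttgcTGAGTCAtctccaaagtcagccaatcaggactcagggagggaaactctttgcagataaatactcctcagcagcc
Cxcl12, chr6:117168285-117168534, plus strand: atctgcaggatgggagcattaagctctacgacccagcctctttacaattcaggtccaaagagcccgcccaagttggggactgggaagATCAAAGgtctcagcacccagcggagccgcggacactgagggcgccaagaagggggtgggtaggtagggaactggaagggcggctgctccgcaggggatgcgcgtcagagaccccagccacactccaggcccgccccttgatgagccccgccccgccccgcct
Ccl8, chr11:82114935-82115184, plus strand: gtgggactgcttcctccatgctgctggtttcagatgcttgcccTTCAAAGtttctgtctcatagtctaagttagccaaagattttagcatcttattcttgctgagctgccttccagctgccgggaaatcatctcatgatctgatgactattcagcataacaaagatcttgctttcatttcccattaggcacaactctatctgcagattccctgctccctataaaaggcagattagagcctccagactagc
In Cxcl1 the capitals run from base -71 to -61 and hold 2 overlapping kappaB matches, with -1 as the base just before the start. In Cxcl10 they mark, in order, an interferon response core from -213, kappaB matches from -159 and from -104 (the latter again 2 that overlap) and an AP-1 match from -74. The single match in Cxcl12, from -163, and that in Ccl8, from -207, are to the TCF motif on the opposite strand. No match to the 4 motifs was found in the Cx3cl1 window. Among 32851 RefSeq windows of 300 bases, 8.46% held the kappaB motif, 8.56% the interferon core, 8.65% the TCF motif and 7.81% the AP-1 motif, so single matches are common; a match is a string of letters and says nothing of binding.

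Total counts over genes ranged from 13850213 to 17523677 in the 3T3 libraries and from 7740198 to 10392402 in the Scid.adh libraries. Tcf7 stood at 14.5 and 14.6 CPM (library-scaled counts, with edgeR's TMM factors) in normal fibroblasts and reached 946 and 972 CPM after induction. In Scid.adh it was 1318 and 1325 CPM in controls against 646 and 624 in knockout libraries. Transcripts of the targeted gene therefore remained in the knockout libraries, and the counts do not tell whether they encode protein. All 8 fibroblast markers were detected in the 3T3 libraries, with summed levels of 14619 and 14265 CPM in normal and 15468 and 15365 CPM in induced cells. Of these markers 4 rose (Col1a1, Pdgfra, Thy1 and Dcn), 2 fell (Col3a1 and Pdgfrb) and 2 did not pass (Col1a2 and Lum). Among all genes tested in 3T3, 18.5% rose and 18.3% fell. The 10 macrophage and other leukocyte markers summed to 15.9 and 16.5 CPM in normal and 16.8 and 16.4 CPM in induced libraries, with 8 and 9 of the 10 detected. Of 4 tested leukocyte markers Cd68 rose (log2 0.51, adjusted p = 0.0206), Coro1a fell (log2 -1.05, adjusted p = 0.0479) and 2 did not pass. The 8 T lineage markers summed to 7.76 to 9.48 CPM over the 4 libraries, and the 6 endothelial ones to 6.89 to 8.72 CPM. Of 3 tested T lineage markers Cd5 rose (log2 0.97, adjusted p = 0.0428) and 2 did not pass, and none of 3 tested endothelial markers passed. Cd68, Coro1a and Cd5 are named after their values were seen. The 6 epithelial markers summed to 1.94 and 2.07 CPM in normal and 3.71 and 2.96 CPM in induced libraries; Krt14, with 8, 17, 32 and 29 counts, rose (log2 1.39, adjusted p = 0.000857; named after its values were seen). The part of these markers in the results below was not tested.

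In fibroblasts with TCF-1 induced, transcripts of the neutrophil attractants Cxcl5 and Cxcl1 and of the T cell attractant Cxcl10 rose about 2-fold or more. Ccl2, Ccl7 and Ccl8 of the Ccl2 cluster moved little, and Ccl5 fell. Of the 10 genes, 9 had enough counts to be tested with edgeR's quasi-likelihood test at an adjusted p under 0.05. Of these, 5 rose, 1 fell and 3 did not pass. Over all 18185 genes tested, 18.5% rose and 18.3% fell. The median log2 fold change was 0.17 over the 9 genes and 0.00 over all genes tested. The 10 genes were chosen with earlier results of these data known, so these comparisons are not independent support. In bulk libraries, fewer cells making a transcript and less of it per cell cannot be told apart. The plot of levels by library shows the values behind these counts.

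**Figure D1:**
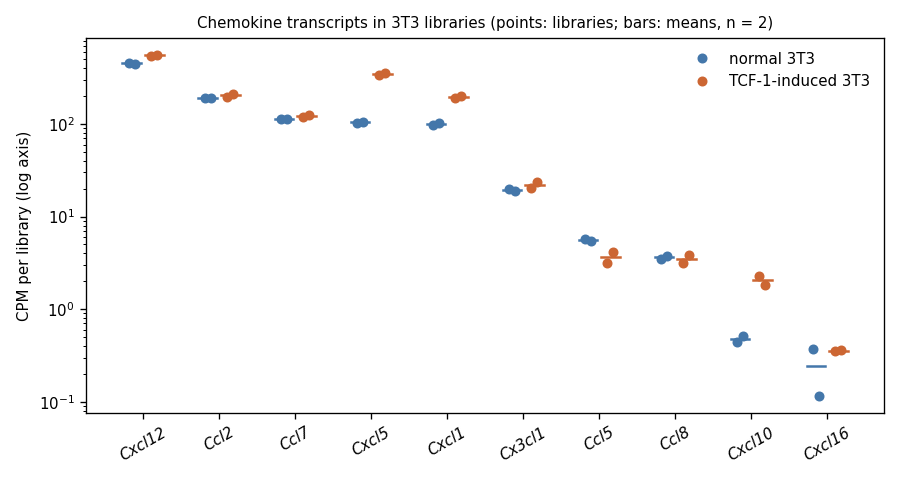
Level of each of the 10 chemokine genes (x axis) in CPM on a log axis (y axis), with points for the 4 3T3 libraries and bars for the means of 2 libraries. Cxcl5, Cxcl1 and Cxcl10 stand clearly higher in both induced libraries, while Ccl2, Ccl7 and Ccl8 lie close to the normal libraries.

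Cxcl5 (ENSMUSG00000029371, GRCm38 chr5:90759360-90761624, plus strand) had the largest gain in level. It stood at 103 and 105 CPM in normal cells against 340 and 361 CPM in induced cells. Both induced libraries lay far above both normal ones. The mean went from 104 ± 1.64 to 350 ± 14.8 CPM (SD, n = 2), a fold change of 3.36 (log2 1.75, SE 0.04, edgeR adjusted p = 1.23e-33).

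Cxcl1 (chr5:90891241-90893115, plus strand), which lies in the same cluster as Cxcl5 and encodes a ligand of the same receptor, stood at 97.5 and 103 CPM in the normal libraries and 191 and 202 CPM in induced ones. The groups did not overlap, and the change of 1.96-fold (log2 0.97, SE 0.04, adjusted p = 1.33e-22) was smaller than that of Cxcl5, with 95% intervals of 0.88 to 1.06 and 1.66 to 1.83 on the log2 scale. The ratio of Cxcl5 to Cxcl1 counts was 1.06 and 1.03 in the normal libraries and 1.78 and 1.79 in the induced ones, so the pair went from near parity to a clear excess of Cxcl5.

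Cxcl10 (chr5:92346638-92348889, minus strand), a classical interferon-induced ligand, was scarce. Its counts were 7 and 9 in the normal libraries and 39 and 25 in the induced ones, which is 0.438, 0.517, 2.30 and 1.80 CPM. The groups did not overlap and the fold change was 4.27, with a 95% interval from 2.56 to 7.12 (log2 2.09, SE 0.37, adjusted p = 7.05e-06). Its exons overlap 133 bases of Art3 on the opposite strand. Art3 had 1 to 5 counts in these libraries, and whether reads were assigned by strand is not stated in the sources used here.

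Cxcl12 (chr6:117168535-117181367, plus strand), the homeostatic stromal ligand, was the most abundant of the 10 by counts. It stood at 460 and 447 CPM in the normal libraries and 549 and 555 CPM in induced ones. The groups did not overlap, and the rise of 1.22-fold (log2 0.28, SE 0.03, adjusted p = 9.22e-10) was small beside those of Cxcl5 and Cxcl1. The groups did not overlap for Ccl2, Ccl7 and Cx3cl1 either, of which Ccl7 and Cx3cl1 did not pass. With 2 libraries per group non-overlap alone says little, and its share over all genes is not given here.

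Ccl2 (chr11:82035571-82037453, plus strand), the main monocyte attractant, stood at 192 and 190 CPM in normal libraries and at 197 and 214 CPM in induced ones. The change was 1.07-fold (log2 0.10, SE 0.04, 95% interval 0.02 to 0.19, adjusted p = 0.0444), and this call was lost in 7 of 12 alternative settings, with an adjusted p of 0.18 by DESeq2 and 0.283 in a joint fit of both lines. Leaving out either normal library or the second induced library also ended it.

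Ccl7 (chr11:82045712-82047525, plus strand), which lies next to Ccl2 and attracts monocytes as well, stood at 114 CPM in both normal libraries and at 118 and 124 CPM in induced ones. It did not pass (log2 0.09, 95% interval -0.01 to 0.18, adjusted p = 0.153), although it passed at 0.13 without the first induced library. The ratio of Ccl7 to Ccl2 counts ranged from 0.582 to 0.603 over the 4 libraries, so the proportion of this pair stayed within a narrow range.

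Ccl8 (chr11:82115185-82116799, plus strand), a further gene of the Ccl2 cluster, stood at 3.50 and 3.79 CPM in the normal libraries. In induced ones it stood at 3.12 and 3.82 CPM. The groups overlapped and the gene did not pass (log2 -0.09, 95% interval -0.49 to 0.32, adjusted p = 0.786). As a fold of the normal level, the interval runs from 0.712 to 1.24.

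Ccl5 (chr11:83525778-83530518, minus strand), a T cell and monocyte attractant better known from T cells, was the only one of the 9 tested genes that fell. It stood at 5.76 and 5.40 CPM in normal libraries and at 3.18 and 4.18 CPM in induced ones, from 92, 94, 54 and 58 counts. The induced libraries lay below the normal ones, with a 1.53-fold lower level (log2 -0.62, SE 0.18, adjusted p = 0.00497). The fall did not pass by DESeq2 (adjusted p = 0.131) or without the first induced library (log2 -0.41).

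The remaining 2 genes encode chemokines that are made on a membrane stalk and shed by proteases such as ADAM10. Cx3cl1 (chr8:94772009-94782427, plus strand), fractalkine, stood at 20.1 and 18.8 CPM in normal libraries and at 20.4 and 23.4 CPM in induced ones. It did not pass (log2 0.17, 95% interval -0.01 to 0.35, adjusted p = 0.150) but did without the first induced library, at 0.28. Cxcl16 (chr11:70453983-70459984, minus strand) had 6 and 2 counts in the normal libraries and 6 and 5 in the induced ones, too few to test. Cxcl16 also shares 552 exon bases with Zmynd15 on the opposite strand, which had 10 to 16 counts in these libraries.

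**Figure D2:**
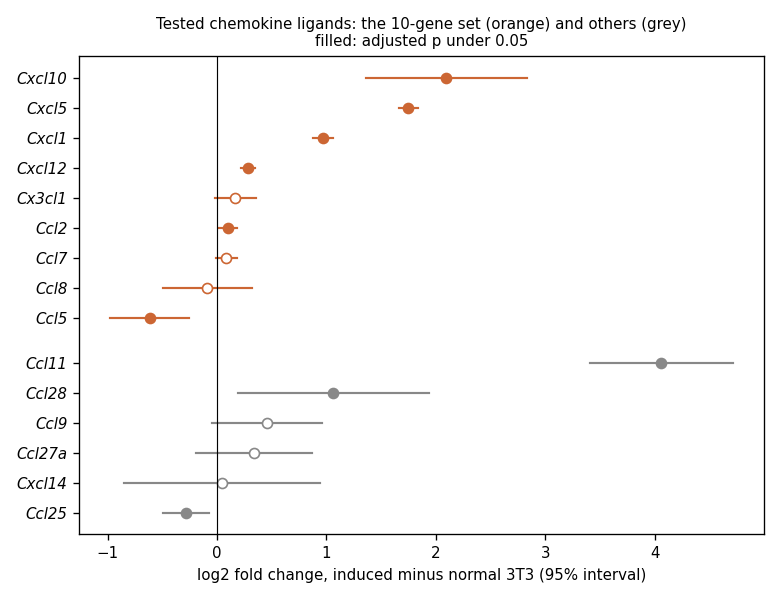
Log2 fold change of each tested chemokine ligand, induced minus normal 3T3 (x axis), with 95% intervals from edgeR, for the 9 tested genes of the set (orange) and the 6 other tested ligands (grey). Filled points passed at an adjusted p under 0.05; Cxcl10 and Cxcl5 lead the set, and Ccl11 lies above all of them.

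Divided by exon length, the order of the genes changed with TCF-1. In normal cells Ccl2 led with 168 CPM per kb of exon, followed by Ccl7 with 143. Cxcl5, Cxcl12 and Cxcl1 followed at 55.9, 55.5 and 53.4 CPM per kb, where the libraries of Cxcl5 and Cxcl12, and those of Cxcl12 and Cxcl1, overlapped. Ccl8, Ccl5 and Cx3cl1 lay at 7.14, 5.81 and 4.94 CPM per kb, and Cxcl10 and Cxcl16 at 0.212 and 0.0811. In induced cells Cxcl5 stood at 188 CPM per kb and Ccl2 at 180, with overlapping libraries. Below them came Ccl7 at 151, Cxcl1 at 105 and Cxcl12 at 67.5 CPM per kb. Exon length here is the union over all annotated transcripts, so a gene with retained introns in the annotation appears lower than its mature transcript would.

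The summed level of the 10 genes was 996 and 988 CPM in the normal libraries and 1425 and 1489 CPM in induced ones. Of the mean gain of 465 CPM, Cxcl5 gave 53.0%, Cxcl12 21.2%, Cxcl1 20.7% and Ccl2 3.12%. Within these reads the share of CC ligands became smaller, although their summed level did not: the 4 CC genes stood at 315 and 313 CPM in normal and 321 and 346 CPM in induced libraries. They held 31.6% and 31.7% of the counts in normal libraries and 22.6% and 23.2% in induced ones. Cxcl1 and Cxcl5 together went from 20.1% and 21.1% to 37.3% and 37.8%. The share of Cxcl12 went from 46.1% and 45.3% to 38.6% and 37.3% although its level rose. For every read of Ccl2 there were 0.537 and 0.555 reads of Cxcl5 in the normal libraries and 1.73 and 1.69 in the induced ones.

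**Figure D3:**
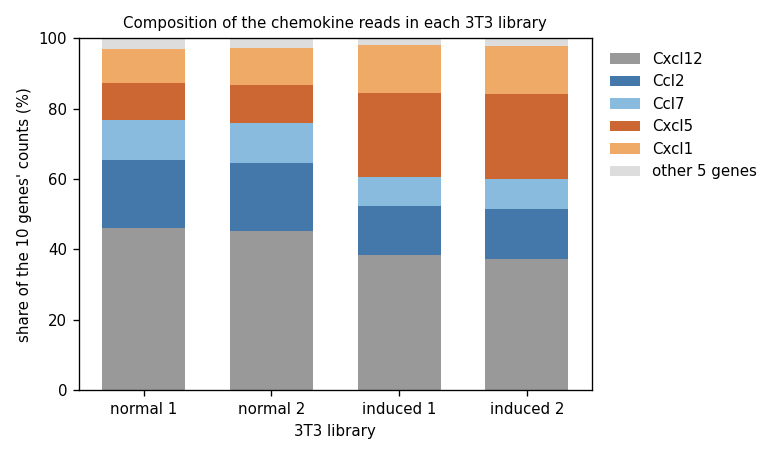
Share of the counts of the 10 chemokine genes (y axis, percent) held by each of the 5 most abundant genes and by the other 5 together, in each of the 4 3T3 libraries (x axis). Cxcl5 and Cxcl1 take a larger share in both induced libraries, and Ccl2, Ccl7 and Cxcl12 a smaller one.

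The 28 other chemokine ligands listed for comparison were mostly silent in 3T3 cells. Only 6 had enough counts to be tested, of which 2 rose, 1 fell and 3 (Ccl9, Ccl27a and Cxcl14) did not pass, with a median log2 fold change of 0.40. All genes tested in 3T3 had shares of 18.5% higher and 18.3% lower. Ccl11, eotaxin, which attracts eosinophils through CCR3, went from 4 and 6 counts in the normal libraries to 93 and 65 in the induced ones. Its mean went from 0.297 to 5.08 CPM (log2 4.06, SE 0.32, adjusted p = 1.65e-14), a larger log2 change than that of any of the 9 tested genes above. Ccl28, an attractant of mucosal lymphocytes, had 6, 11, 15 and 18 counts and passed narrowly (log2 1.06, adjusted p = 0.0492), a call lost without any 1 of the 4 libraries and also without the count filter and in the joint fit. Ccl25, known for guiding thymocytes through CCR9, fell from 16.0 to 13.2 CPM (log2 -0.28, adjusted p = 0.0252). That call was lost by DESeq2 and without either normal library or the first induced library.

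Genes of the same chemokine cluster changed unequally. The cluster from Ccl2 to Ccl1 spans 270 kb of chromosome 11 with 6 chemokine genes, of which 4 were tested. Within it Ccl11 rose at 22.3 kb from Ccl2, and Ccl2 itself passed with a log2 fold change of 0.10. Ccl7, which lies between them, and Ccl8 beyond did not pass. Neighbours here and below are protein-coding genes only. No such gene other than a chemokine was tested within 300 kb of this cluster. For the counts of neighbours that follow, the shares over all genes tested in 3T3 were 18.5% higher and 18.3% lower. Around the cluster from Ccl5 to Ccl4, 10 other genes were tested, of which 3 rose, 1 fell and 6 did not pass. Slfn14 alone among them passed with at least 2-fold (log2 2.02, SE 0.57, adjusted p = 0.00391). It was scarce, with means of 0.204 CPM in normal and 0.887 CPM in induced libraries. Around the cluster from Cxcl5 to Cxcl2, 2 of 3 other genes rose and 1 did not pass. The nearer of these to Cxcl1 was Mthfd2l (log2 0.32), and the other was Ereg, which encodes the growth factor epiregulin (log2 0.74); both are named after their values were seen. Around the cluster from Cxcl9 to Cxcl11, 5 of 10 other genes rose, 3 fell and 2 did not pass, with U90926 (log2 1.89), Naaa (log2 1.05) and Stbd1 (log2 -1.13) changing at least 2-fold.

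**Figure D4:**
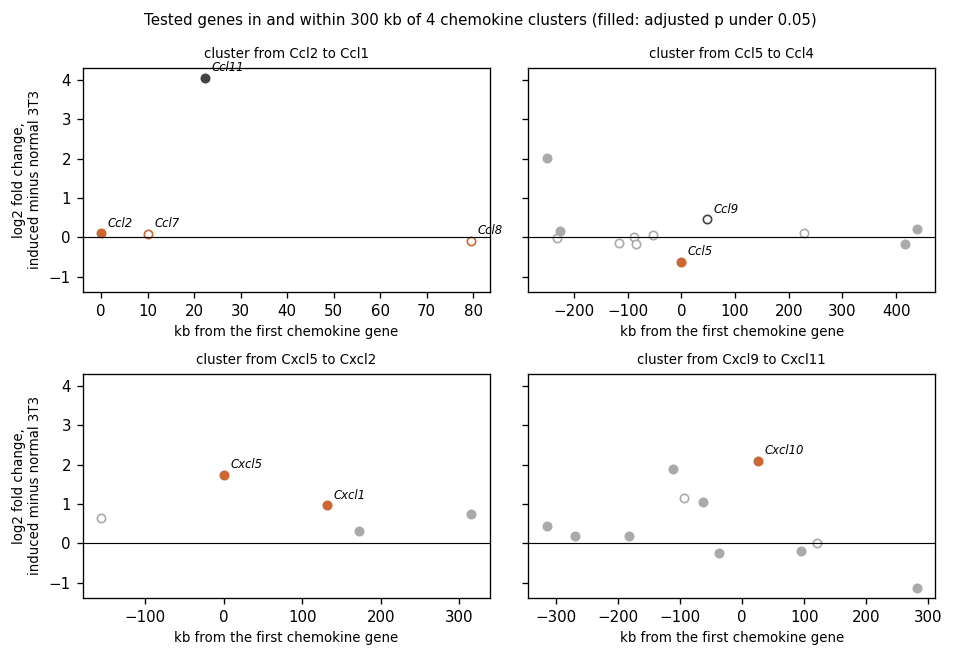
Log2 fold change, induced minus normal 3T3 (y axis), against distance in kb from the first chemokine gene (x axis). Shown are the tested protein-coding genes in and around 4 chemokine clusters. Orange points belong to the 10-gene set, dark points are other chemokines and grey points are other genes. Filled points passed at an adjusted p under 0.05. In the cluster of Ccl2, Ccl11 stands far above the others, and Ccl2 also passed.

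Receptors that read these ligands were scarce in fibroblasts. Of 24 listed chemokine receptors 6 were tested, of which 3 rose, none fell and 3 did not pass, with a median log2 fold change of 0.41. The shares over all genes tested in 3T3 were 18.5% higher and 18.3% lower. Ackr3, a scavenging receptor that takes up CXCL12, stood at 16.5 and 18.3 CPM in the normal libraries and 52.8 and 52.3 CPM in induced ones. The groups lay well apart (log2 1.59, SE 0.08, adjusted p = 3.25e-22), so the ligand and its scavenger were both higher in induced cells. The other 2 that rose are named after their values were seen. Ccr7, the lymph-node homing receptor, went from 2 and 5 counts to 39 and 27 (log2 3.30, adjusted p = 3.01e-08). Ackr4, a scavenger of CCR7 ligands, had 44, 41, 56 and 59 counts (log2 0.55, adjusted p = 0.0407), and lost its call by DESeq2 and in 5 other settings.

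Among the inflammatory cytokines that fibroblasts make alongside chemokines, some rose and some fell. Of 16 listed, 11 were tested, of which 4 rose, 2 fell and 5 did not pass, with a median log2 fold change of -0.03. Beside this stand 18.5% higher and 18.3% lower over all genes tested in 3T3. Il6, a principal fibroblast cytokine, stood at 1.94 and 1.61 CPM in normal libraries and at 25.1 and 29.3 CPM in induced ones (log2 3.93, adjusted p = 5.65e-26). Csf1, the macrophage growth factor, stood at 398 and 409 CPM and then at 665 and 657 CPM (log2 0.71, adjusted p = 1.23e-22). Csf3, the neutrophil growth factor, went from 8 and 10 counts to 80 and 57 (log2 3.02, adjusted p = 6.67e-12), and Il1a from 2 and 5 counts to 17 and 18. Lif fell from 23.1 and 24.4 CPM to 15.5 and 17.5 CPM (log2 -0.53, adjusted p = 5.69e-06), and Il15 fell by 0.73 on the log2 scale. The call of Il15 was lost by DESeq2 and without the second normal library. Csf3, Il1a and Il15 are named after their values were seen.

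In the lists of routes that can switch chemokines on, more genes rose than fell. Over all genes tested in 3T3, 18.5% rose and 18.3% fell, the shares to set beside every list count in this line. The lists were chosen with earlier results of these data known, and the part of these routes in the chemokine changes was not tested. Among 14 genes of NF-kB factors and feedback 8 rose, 2 fell and 4 did not pass, with a median log2 fold change of 0.15. Nfkbie, an NF-kB inhibitor that NF-kB itself induces, stood at 14.6 and 15.1 CPM and then at 27.3 and 31.6 CPM (log2 0.98, adjusted p = 1.94e-12). Bcl3, a nuclear partner of NF-kB, rose by a log2 fold change of 0.65, while the NF-kB subunit gene Rel fell (log2 -0.49).

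Among 14 genes of the interferon route 10 rose, 2 fell and 2 did not pass, with a median log2 fold change of 0.60, the highest of the 7 lists. Irf9 and Stat2 encode proteins that carry the type I interferon signal to DNA. Irf9 went from 12.95 and 12.47 CPM to 37.9 and 31.1 CPM (log2 1.45, adjusted p = 2.07e-17). Stat2 went from 17.0 and 16.5 CPM to 32.7 and 32.5 CPM (log2 0.96). Both rose in every alternative setting run.

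Of 17 inflammatory receptors and adaptors 11 rose, 2 fell and 4 did not pass, with a median log2 fold change of 0.32. Tlr2, a receptor for bacterial lipoproteins, went from 12.3 and 12.4 CPM to 36.7 and 36.3 CPM (log2 1.56, adjusted p = 8.46e-20). The shared IL-6 family receptor subunit Il6st went from 832 and 829 CPM to 1815 and 1863 CPM (log2 1.15), and the IL-1 receptor subunit Il1rap from 87.4 and 85.9 CPM to 174 and 189 CPM (log2 1.06).

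Of 12 genes of chemokine processing and mRNA decay 11 were tested, of which 5 rose, 4 fell and 2 did not pass, with a median log2 fold change of -0.03. Mmp9, a protease that trims several CXC chemokines, went from 19.3 and 17.2 CPM to 66.7 and 65.4 CPM (log2 1.86, adjusted p = 1.61e-25). Zc3h12a, which encodes an RNase that degrades inflammatory mRNAs, went from 44.0 and 46.9 CPM to 91.4 and 84.9 CPM (log2 0.96). Zfp36l1, which encodes a protein that binds AU-rich elements and promotes decay, rose by a log2 fold change of 0.76.

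**Figure D5:**
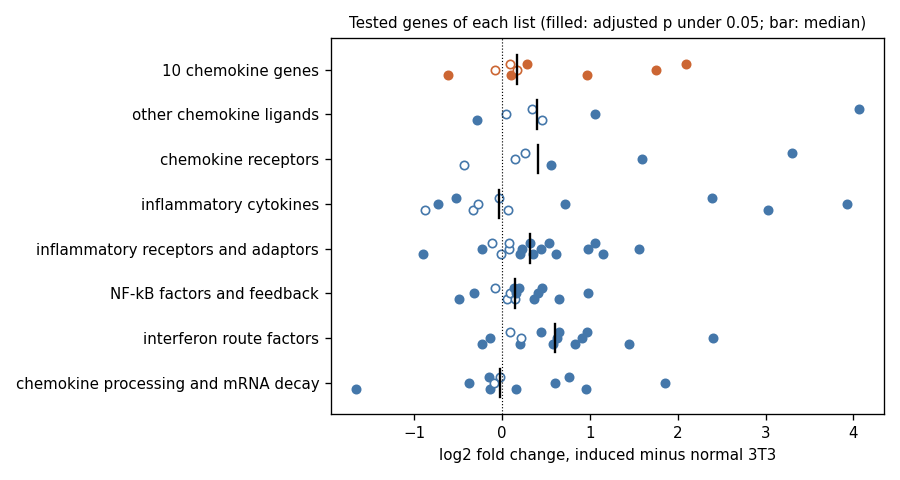
Log2 fold change, induced minus normal 3T3 (x axis), of each tested gene in the 10-gene set (orange) and in 7 lists of ligands, receptors and upstream genes (blue, y axis). Filled points passed at an adjusted p under 0.05 and black bars are list medians; the interferon route has the highest median, 0.60.

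AU-rich pentamers of the letters ATTTA can mark mRNAs for rapid decay, and their density differed widely among the 10 genes. The 3′ UTR of Cxcl1 held 7 in 592 bases, or 11.8 per kb, and 99.6% of 12537 tested genes with an annotated 3′ UTR of at least 100 bases had fewer per kb. Ccl7 held 4.60 per kb, Cxcl5 4.50, Ccl2 3.64 and Cxcl10 2.74, against a median of 1.29 over those genes. At least 1 pentamer was held by 68.6% of those genes, so its presence alone is common. Cxcl16 held 1.41, Cxcl12 0.771 and Cx3cl1 0.534 per kb, and none were found in Ccl5 and Ccl8. How this density relates to the changes was not tested.

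For each of the 6 genes that passed, the 2 other protein-coding genes with the closest pattern over the 4 3T3 libraries were found among 10498 genes averaging 5 CPM or more, by the distance between centred log2 CPM values. With 4 libraries such likeness rests mostly on the size of the group difference. Nearest to Cxcl5 were Parp14, an interferon-induced ADP-ribosyltransferase, with 11.9 CPM in normal and 39.7 in induced cells, and Slc9a3r1, a membrane scaffold protein, with 9.57 and 32.8 CPM. Nearest to Cxcl1 was Ifitm2, an interferon-induced membrane protein, with 96.3 and 187 CPM. Nearest to Cxcl10 were Slc10a6 and Serpina3i, to Cxcl12 Ahsa1 and Mrpl4, to Ccl2 5730455P16Rik and Zfp148, and to Ccl5 Rell1 and Hoxc6.

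In Scid.adh cells the 10 genes were nearly silent except for Cxcl12. Cxcl12 had 56 and 62 counts in the controls and 21 and 25 in knockout libraries, which is 5.64, 6.62, 2.55 and 2.97 CPM. Both knockout libraries lay below both controls, at a 2.21-fold lower level (log2 -1.14, SE 0.28, edgeR adjusted p = 0.00893). Over the 11941 genes tested in this line, 15.9% fell and 15.6% rose. These were 1899 and 1861 genes, and upper-quartile scaling gave 1215 that fell and 2455 that rose. The call was lost by DESeq2 (adjusted p = 0.0586) and without the second empty-vector library (log2 -1.04, adjusted p = 0.0515). All 8 fibroblast markers summed to 675 and 715 CPM in controls and 408 and 375 CPM in knockout libraries, the same direction as Cxcl12. Most of this was Thy1, also a T cell surface gene, which went from 554 and 589 CPM to 397 and 365 CPM, and Pdgfrb, which went from 1188 and 1172 counts to 36 and 32 (log2 -4.90). The other 6 markers summed to 15 and 12 counts in controls and 53 in each knockout library, and of these Col1a1, Col1a2 and Pdgfra were called higher in the knockout. Their part in the result was not tested.

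Summed, the other 9 genes had 4 and 3 counts in the controls and 4 and 19 in knockout libraries, and none was tested. Ccl7, Ccl8 and Cxcl10 had 0 counts in all 4 libraries, where 3 counts over a group correspond to 0.156 CPM in controls and 0.180 CPM in knockout libraries. Ccl2 had 1 count, Ccl5 4, Cxcl1 4, Cxcl5 1, Cxcl16 10 and Cx3cl1 10 over the 4 libraries. Of the 19 counts in the second knockout library, 7 were of Cx3cl1 and 5 of Cxcl16. These 9 genes had too few counts to enter the test in this line; in the joint fit of both lines Cxcl1, with 0, 0, 1 and 3 counts, was called higher in the knockout. Limits from counts cover counting error only.

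Cxcl12 was the only one of the 10 tested in both lines, and it was higher with TCF-1 in each. The effect of TCF-1, taken as induced minus normal in 3T3 and as empty vector minus knockout in Scid.adh, differed by -0.90 on the log2 scale between 3T3 and Scid.adh (SE 0.21, 95% interval -1.33 to -0.47, interaction adjusted p = 0.00155), where 28.8% of 15854 genes differed between the lines. The change was thus the larger one in Scid.adh, from a level there of 5.64 and 6.62 CPM against 549 and 555 CPM in induced 3T3 cells, in tables that were scaled separately.

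Scid.adh cells expressed chemokine receptors at levels that could be tested more than they did ligands. All 6 tested receptors passed, of which 2 rose and 4 fell in the knockout, with a median log2 fold change of -0.49. The shares over all genes tested in this line were 15.6% higher and 15.9% lower. Cxcr6, the receptor of CXCL16, went from 3.32 and 3.63 CPM to 9.24 and 7.48 CPM (log2 1.26, adjusted p = 0.00301), and Ccr9, the thymic receptor of CCL25, from 8.87 and 9.61 CPM to 23.8 and 19.5 CPM (log2 1.23, adjusted p = 0.000253). Ccr4, a receptor of CCL17 and CCL22, fell from 30.1 and 31.3 CPM to 15.9 and 13.2 CPM (log2 -1.08, adjusted p = 0.000176). The others that fell are named after their values were seen. Cxcr4, the CXCL12 receptor and the most abundant of these, went from 196 and 200.4 CPM to 155 and 151 CPM (log2 -0.37, adjusted p = 0.00102). Cxcr3, the receptor of CXCL10, fell by 0.61 on the log2 scale and Ackr3, with 13, 24, 5 and 2 counts, by 2.16. The calls of Cxcr3 and Ackr3 were lost by DESeq2 and without single libraries. The knockout libraries were shallower and detected more genes, 20406 and 20463 against 18084 and 18041, 6 of 7 tested T lineage markers were lower in them, and the part of these in the results was not tested.

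In the knockout, the genes of the NF-kB list that passed were all lower. Over all genes tested in this line 15.6% rose and 15.9% fell, and these shares shifted with upper-quartile scaling, as given above for Cxcl12. Of 13 tested NF-kB genes none rose, 5 fell and 8 did not pass, with a median log2 fold change of -0.29; Nfkb1 fell by 0.70, Nfkb2 by 0.74 and Tnfaip3 by 0.79 on the log2 scale, the last losing its call by DESeq2 and without either empty-vector library. Of 14 interferon route genes 2 rose, among them Ifngr2 (log2 1.33), 3 fell, among them Irf2 and Ifngr1, and 9 did not pass. The calls of Irf2 and Ifngr1 were lost by DESeq2, with upper-quartile factors and without single libraries. Of 10 tested inflammatory receptors and adaptors 2 fell, Il6st (log2 -0.41) and Irak1 (log2 -0.28), and 8 did not pass. Of 10 tested genes of processing and decay Mmp9 rose (log2 0.59), Khsrp fell (log2 -0.40) and 8 did not pass. Irak1 and Mmp9 lost their calls by DESeq2 and without single libraries, and Mmp9 also without the count filter. Of 2 tested cytokines Tnf fell (log2 -2.08, adjusted p = 0.00491; named after its values were seen) and 1 did not pass, and neither of the 2 other chemokine ligands tested passed.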

How the data were processed

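Gene counts of 8 libraries were used as deposited by the authors, 1 table per library. Per the labels' protocols, stranded total RNA libraries for low input were read in pairs; the submitters' processing notes name GRCm38, HTSeq 0.6.1 and STAR 2.5.0a. The sources used here do not state the annotation release, the strand setting or the counter of the 3T3 reads. Summary rows of unassigned reads, present in the Scid.adh tables only, were left out; reads outside any gene were 21.3%, 21.6%, 22.3% and 25.8% and ambiguous reads 2.28%, 2.31%, 2.44% and 2.20% of all reads there.

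Each line was fitted over all genes with edgeR 4.0.16 in R 4.3.3 (filterByExpr, TMM, robust quasi-likelihood F-test, Benjamini-Hochberg, call at an adjusted p under 0.05), without a replicate block. Every adjusted p in the text comes from this test unless another tool is named. The difference between lines came from a joint fit of 8 libraries on genes in both tables. CPM use TMM effective library sizes; symbols came from a table of Ensembl names, and positions and exon lengths from GENCODE M21, which lacked 191 of the 3T3 genes and 119 of the Scid.adh genes. Promoter windows came from RefSeq. Steps were tested on simulated data.

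The members and lists were chosen with earlier results of these data known. Named were all 10 members, Tcf7, up to 3 called genes per list averaging 5 CPM or more, with the largest changes (otherwise the most abundant tested gene), every other chemokine ligand that passed, the 2 genes of nearest pattern, and cluster neighbours that passed at 2-fold; 2 genes that this rule names are not reported here. Alternatives were size factors of DESeq2 1.42.0, upper-quartile factors, DESeq2, limma-voom (limma 3.58.1), a minimum mean of 1 CPM, no filter, a replicate block, the joint fit and each library left out. Figures were made in Python 3.11.15 with matplotlib 3.10.9.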

Additional observations from a re-analysis of the deposited data

Results flagged for a closer look

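The effect of TCF-1 on Cxcl12 differed between the lines: the log2 change in 3T3 minus that in Scid.adh was -0.90 (SE 0.21, edgeR interaction adjusted p = 0.00155). Both lines had more Cxcl12 with TCF-1, in 2 of 2 libraries each, and the difference passed in all 12 alternative settings.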

How the results depend on the processing

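Over the 9 tested chemokine genes in 3T3, 96 of 108 alternative values kept their direction and side of the threshold, 9 lost their call, 2 gained one and 1 turned direction, Ccl8, which ranged from -0.23 to 0.068 with single libraries left out and was above 0 without the first induced library. Cxcl5, Cxcl1, Cxcl10 and Cxcl12 kept their calls in 3T3 in all 12 settings. DESeq2 called 1977 genes higher and 2035 lower in 3T3, 880 and 1080 in Scid.adh and 1284 higher in the difference between lines, against 3361, 3332, 1861, 1899 and 2294 by edgeR. It called 0 of the chemokine genes lower in either line, against 1 in each. Upper-quartile factors gave 1215 lower genes in Scid.adh. With single libraries left out, the chemokine genes called lower ranged from 0 to 1 in both lines, and genes called in Scid.adh from 1059 to 1911 higher and from 1162 to 2321 lower, with the low values without the first (1059 and 1162) or second (1180 and 1198) empty-vector library. The lone library left in a group is then assumed to vary like the others. The joint fit called 1 chemokine gene higher in Scid.adh, Cxcl1, which had 0, 0, 1 and 3 counts. Same-numbered libraries did not deviate together over all genes (correlations of 0.0124 in 3T3 and 0.00147 in Scid.adh). With 2 libraries per group these values cannot exclude that the numbers pair the samples, which is not labelled. A replicate block gave 3633 higher and 3577 lower genes in 3T3 and 2028 and 2010 in Scid.adh. It gave the same 5 higher and 1 lower chemokine genes in number. Low counts limit Cxcl10, Ccl5 and Ccl8 in 3T3 and all 10 genes in Scid.adh.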
